A study of Mus musculus with 13 samples.

Results

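The 10 integrin chains described here were taken as the rows of the count tables whose gene name is Itgb1, Itgb2, Itgb3, Itgb7, Itga4, Itga5, Itga6, Itgae, Itgal or Itgav. They are 10 of 24417 named genes, each present in both tables. Their mRNA was measured by bulk RNA-seq in 13 libraries of doubly sorted CD4 T cells from pooled spleen and lymph nodes of C57BL/6 mice. Each alpha chain is set beside the beta chain with which its protein forms a receptor.

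Integrins are paired membrane receptors, 1 alpha with 1 beta chain, that hold a cell to matrix or to other cells. The beta1 chain pairs with many alpha chains, among them alpha4 and alpha5, which bind fibronectin (alpha4 also binds VCAM-1), and alpha6, which binds laminin. The beta7 chain pairs with alpha4, giving the gut-homing receptor for MAdCAM-1, or with alphaE (CD103, the product of Itgae), giving the receptor for E-cadherin on epithelium. The beta2 chain pairs with alphaL to form LFA-1, the main T cell receptor for ICAM-1, and alphav pairs with beta1, beta3 and other beta chains and takes part in binding vitronectin and latent TGF-beta. Regulatory T (Treg) cells that have met antigen carry more CD103 than resting ones in many settings. Integrin protein reaches the surface only as a pair, so mRNA of a chain is no measure of receptor at the surface.

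The male experiment held 3 groups that all were given 4-hydroxytamoxifen (4-OHT) as a single dose at 14 days of age and were analysed at 21 days. Control Treg cells (n = 3) came from healthy Foxp3DTR-GFP/y Cd4creERT2 mice, whose Foxp3 allele encodes a diphtheria toxin receptor fused to GFP. Rescued Treg cells (n = 3) came from Foxp3LSL/y Cd4creERT2 mice, in which a loxP-flanked Thy1.1-STOP cassette blocks Foxp3 until Cre, driven by the Cd4 gene and switched on by 4-OHT, removes it. Male Treg wannabes (n = 2) came from Foxp3LSL/y Cd4wt mice, which lack Cre and stayed sick, and these cells transcribe the blocked allele without making Foxp3 protein. The female experiment held mice of 9 to 11 weeks that had all received repeated diphtheria toxin in the week before analysis. Resting wannabes (n = 3) came from Foxp3LSL/WT Cd4wt mice, which keep normal Treg cells. Activated wannabes (n = 2) came from Foxp3LSL/DTR Cd4wt mice, in which the toxin removed the Treg cells. The libraries of a group are biological replicates by the methods of the study. Sex, age and agent differ between the experiments, so levels were compared within an experiment. Foxp3 genotype and health could not be told apart between rescued and control Treg cells, because no control Treg library came from sick mice.

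Between 25556783 and 36659638 reads were counted on named genes per library, and a count of 3 in these totals is 8.18e-06 to 1.17e-05 percent. The 2 male wannabe libraries stood further apart from each other than most replicates did, and this touched several chains below. The summed level of 7 T cell markers, Cd3e and Cd4 among them, lay between 117478 and 179666 normalized counts, and that of 9 myeloid markers between 38.9 and 360. Of 7 platelet markers, Pf4 and Gp1bb were listed at 0 in every library, which, as for Itgal below, may give no level. The sum of the list ran from 0 to 107, highest in male wannabes, and its highest gene was Itga2b. The 5 B cell markers summed to 1051 to 1450 in the male libraries, to 290 to 360 in resting and to 670 to 735 in activated wannabes. The 4 CD8 T and NK cell markers summed to between 364 and 1139, the 6 dendritic cell markers to between 29.3 and 241 and the 5 erythroid markers to between 29.5 and 545. The 6 stromal and endothelial markers reached 10069 through Pecam1, which T cells also express. The endothelial genes Cdh5 and Kdr stayed at 11.6 or fewer, and 3 of the 6 stayed under 100 in every library. Between rescued and control Treg cells 3 of the 6 were tested. Their median log2 difference was 2.34, and 1 was called, lower in rescued Treg cells, beside 2.30% of all genes. The 5 Treg markers summed to 89529 to 134262 in control and rescued Treg cells and to 44066 to 60328 in the wannabes. The part of these marker differences in the results below was not tested.

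Itgal was listed at 0 in all 13 libraries, although its partner Itgb2 was among the highest integrin chains in each. This was 1 of 4180 genes (17.1%) at 0 throughout, and the class I gene H2-D1, which T cells use, was among them. The listing therefore gives no level of the LFA-1 alpha chain, and no change was computed for it. The other 9 chains passed the filter on low counts in both experiments, so every result below is about those 9.

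On GRCm38 in the GENCODE annotation the chains are spread over 6 chromosomes, with 3 of the 10 on chromosome 2. Itgb1 lies on chromosome 8 from 128685654 to 128733200 (plus strand) and Itgb7 on chromosome 15 from 102215995 to 102231944 (minus strand). Itga4 lies on chromosome 2 from 79255426 to 79333123 (plus strand), Itga5 on chromosome 15 from 103344286 to 103366763 (minus strand) and Itgae on chromosome 11 from 73090583 to 73147446 (plus strand). The 3′ end of Itga4 overlaps Cerkl on the opposite strand over 2581 bases, of which 1124 are exonic in both genes, and whether counting used strand is not given in the sources used here. Cerkl had at most 693 counts in a library while Itga4 had 3074 or more. The gene Haspin (Gsg2 in the tables) lies inside Itgae on the opposite strand and shares no exonic base with it, and 634 exonic bases of Itgav are shared with the antisense transcript Gm13684.

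RefSeq promoter windows on GRCm38.p6 (250 bases before to 50 after the start) were held for 5 of the 10 chains. The 3 printed here belong to the beta1 chain and the fibronectin-binding alpha chains, which moved in opposite directions in the female experiment. They are written 5′ to 3′ along the gene, and capitals mark matches, on either strand, to the GC box (GGGCGG), the RUNX core (TGTGGT), the ETS core (CCGGAA), AP-1 (TGANTCA), NFAT (TGGAAA) or forkhead (TGTTTA) letters.
Itgb1 (chr8:128685404-128685703, plus strand): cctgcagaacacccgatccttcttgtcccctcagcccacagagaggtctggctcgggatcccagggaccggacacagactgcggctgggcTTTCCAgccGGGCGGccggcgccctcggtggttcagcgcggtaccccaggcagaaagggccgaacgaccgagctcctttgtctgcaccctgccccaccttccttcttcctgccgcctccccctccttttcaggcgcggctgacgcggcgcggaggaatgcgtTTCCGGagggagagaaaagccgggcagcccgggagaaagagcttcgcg
Itga4 (chr2:79255176-79255475, plus strand): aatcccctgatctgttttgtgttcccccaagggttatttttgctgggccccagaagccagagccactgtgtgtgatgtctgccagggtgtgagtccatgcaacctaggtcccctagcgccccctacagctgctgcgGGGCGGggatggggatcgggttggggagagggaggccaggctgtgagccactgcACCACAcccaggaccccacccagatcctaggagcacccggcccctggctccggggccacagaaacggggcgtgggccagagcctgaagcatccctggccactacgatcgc
Itga5 (chr15:103366742-103367041, minus strand): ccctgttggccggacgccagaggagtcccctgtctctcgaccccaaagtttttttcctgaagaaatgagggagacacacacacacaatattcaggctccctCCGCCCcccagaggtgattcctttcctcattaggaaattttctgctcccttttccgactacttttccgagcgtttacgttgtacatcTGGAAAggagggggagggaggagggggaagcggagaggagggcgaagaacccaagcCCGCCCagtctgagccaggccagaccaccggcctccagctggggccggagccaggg
The Itgb1 window held 1 GC box, 1 NFAT and 1 ETS match, the Itga4 window 1 GC box and 1 RUNX match, and the Itga5 window 2 GC boxes and 1 NFAT match. Of 32851 windows of the same length, 35.7% held the GC box letters, 21.4% the NFAT, 16.8% the RUNX, 14.9% the ETS, 13.4% the forkhead and 7.81% the AP-1 letters. The GC box was the one motif of the list found in all 3 windows. A match describes the letters only. The GC content was 67.3% for Itgb1, 64.3% for Itga4 and 58.7% for Itga5, against a median of 52.7% over all windows.

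Levels per kilobase of exon, the scale on which different genes can be compared, were highest for 3 beta chains (Itgb7, Itgb2 and Itgb1) in control Treg cells, while the beta chain Itgb3 came below Itgae, Itga4 and Itga6. In control Treg cells the order was Itgb7 (mean 19636 normalized counts per kb), Itgb2 (10648), Itgb1 (5246), Itgae (2240), Itga4 (1014), Itga6 (926), Itgb3 (368), Itgav (231) and Itga5 (91.1). Neighbours in this order did not overlap across libraries except Itga4 with Itga6 and Itgb3 with Itgav. In rescued Treg cells Itgb7 stayed first at 31298 per kb, Itgb1 came next at 15331, overlapping Itgb2 at 11987, and Itgae followed at 8701. The male wannabes had a different head of the list: Itgb2 was first at 14628 per kb and then Itgb7 at 7671, without overlap, while Itgb1 (4972) and Itgae (4346) overlapped. In resting wannabes Itgb1 stood at 2131 per kb, behind Itgb7 and Itgb2, and Itgae at 421, overlapping Itgav at 303. In activated wannabes Itgb1 stood at 15825 per kb, above Itgb2 at 10469, and Itgae came after them at 2251. Itga5 was last in every group, from 13.1 per kb in rescued Treg cells to 158 in resting wannabes.

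**Figure D1:**
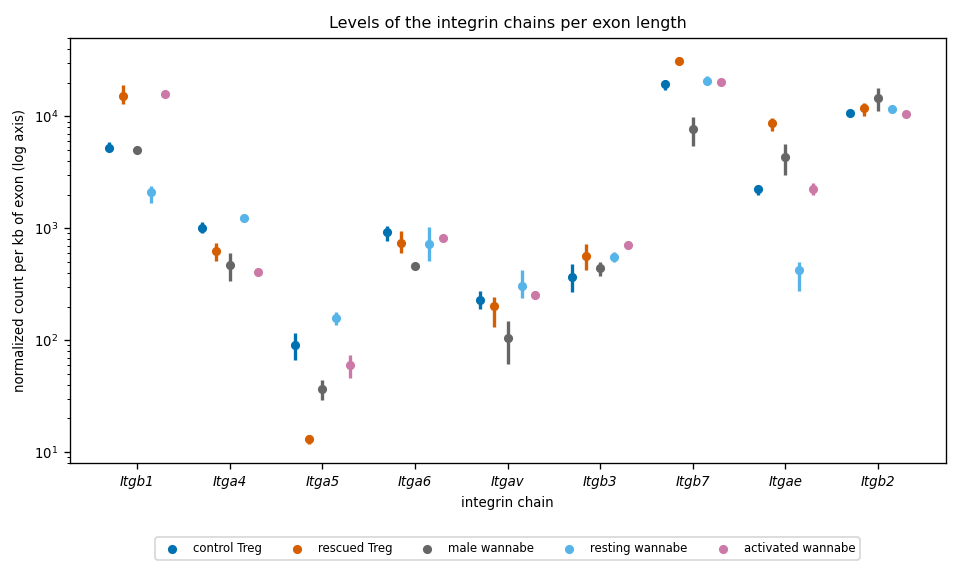
Normalized counts per kilobase of exon (log axis) for the 9 chains with counts, by group. Points are group means (n = 3, 3, 2, 3 and 2 libraries) and bars run from the lowest to the highest library. The beta chains Itgb7 and Itgb2 lead in control Treg cells and resting wannabes, and Itga5 is lowest in each group.

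Itgb1, the shared beta1 chain, was high in rescued Treg cells and in activated wannabes. Its normalized counts (counts scaled by the TMM library size) were 22614, 18711 and 18721 in the control Treg libraries, 72692, 49138 and 53635 in the rescued ones and 19926 and 18008 in the male wannabes. The rescued libraries all lay above the other 2 groups, which overlapped. In bulk libraries such as these, fewer cells of a kind and less RNA per cell cannot be told apart. Itgb1 rose from 20015 ± 2250 (SD, n = 3) in control to 58488 ± 12505 (SD, n = 3) in rescued Treg cells, a log2 fold change of 1.55 (standard error 0.16, 95% interval 1.19 to 1.91, Benjamini-Hochberg adjusted p = 0.00143, edgeR quasi-likelihood). Against the male wannabes (18967 ± 1356, SD, n = 2) the rescued level was higher by 1.63 (standard error 0.19, adjusted p = 0.000395, edgeR). Control Treg cells and male wannabes differed by 0.08 with an interval from -0.31 to 0.47 (adjusted p = 0.806, edgeR). In the female experiment the counts were 6465, 8878 and 9048 in resting and 60988 and 59756 in activated wannabes. There Itgb1 rose from 8130 ± 1445 (SD, n = 3) to 60372 ± 871 (SD, n = 2), a log2 fold change of 2.89 (standard error 0.15, interval 2.53 to 3.25, adjusted p = 0.000273, edgeR), or 7.40-fold. These 3 calls held with any single library left out and under every other fit tried.

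Itga4, which makes the alpha4 chain of the fibronectin and VCAM-1 receptor, went down where Itgb1 went up in the female experiment. Its normalized counts were 11783, 12520 and 11797 in resting and 4045 and 3940 in activated wannabes, with no overlap. Itga4 fell by 1.60 in log2 units (standard error 0.08, adjusted p = 0.000249, edgeR), or 3.02-fold, and the call held with any library left out. In the male experiment the libraries read 11244, 9663 and 8812 in control Treg cells, 5009, 6179 and 7261 in rescued Treg cells and 5875 and 3318 in male wannabes. Control lay above both other groups, and rescued Treg cells overlapped the wannabes. Itga4 was higher in control Treg cells than in male wannabes by 1.11 (standard error 0.25, adjusted p = 0.0136, edgeR). Without male wannabe replicate 2 this was 0.71 with an adjusted p of 0.0753. Rescued and control Treg cells differed by -0.69 (interval -1.17 to -0.21, adjusted p = 0.141, edgeR), which did not pass, although it passed with DESeq2 (adjusted p = 0.0499) and with male wannabe replicate 1 (0.0396) or 2 (0.0397) left out of the edgeR fit. Rescued Treg cells against male wannabes gave 0.42 (adjusted p = 0.298, edgeR), and 0.89 (adjusted p = 0.034) without male wannabe replicate 1. The overlapping gene Cerkl also fell in activated wannabes, by 1.02 on the log2 scale (adjusted p = 0.00882, edgeR, but 0.0632 or 0.0853 without activated wannabe replicate 1 or 2). Control Treg cells against male wannabes gave 0.68 for Cerkl (adjusted p = 0.168, edgeR).

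Itga5, the alpha5 chain of the classical fibronectin receptor, had the lowest counts of the 9 and was lowest of all in rescued Treg cells. The rescued libraries held 62.4, 51.7 and 58.0 normalized counts, against 513, 292 and 393 in control Treg cells and 129 and 195 in male wannabes, so the 3 groups did not overlap. Itga5 fell by 2.80 in log2 units (standard error 0.41, adjusted p = 0.0079, edgeR) from control to rescued Treg cells, or 6.95-fold, in every fit tried. It was also lower in rescued Treg cells than in male wannabes (log2 difference -1.49, standard error 0.42, adjusted p = 0.0385, edgeR). That call was lost with a fit of those 2 groups alone (adjusted p = 0.152), with no filter on low counts (0.0628) and without control Treg replicate 1 (0.0631) or 3 (0.0684), male wannabe replicate 2 (0.16) or rescued Treg replicate 1 (0.0714), 2 (0.118) or 3 (0.0819). Control Treg cells against male wannabes gave 1.30 (adjusted p = 0.0679 with edgeR, 0.0307 with DESeq2). In the female experiment the counts were 689, 600 and 783 in resting and 322 and 201 in activated wannabes. Itga5 fell by 1.41 there (standard error 0.24, adjusted p = 0.00974, edgeR), with -1.12 and an adjusted p of 0.0596 when activated wannabe replicate 2 was left out.

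Itga6, the laminin-binding alpha6 chain, ran from 3396 to 4609 normalized counts in control Treg cells, from 2638 to 4116 in rescued Treg cells and stood at 1885 and 2144 in male wannabes. It was higher in control Treg cells than in wannabes by 1.01 (standard error 0.23, adjusted p = 0.0141, edgeR). The call was lost without control Treg replicate 2 (adjusted p = 0.0507) or male wannabe replicate 1 (0.0584). The difference of 0.68 between rescued Treg cells and wannabes did not pass (adjusted p = 0.073 with edgeR, 0.0434 among genes with a mean over 100 normalized counts, 0.0365 with DESeq2), nor did that of -0.32 between rescued and control Treg cells (adjusted p = 0.488). In resting wannabes 1 library, replicate 1, held 4509 and the others 2208 and 2725, and activated wannabes, at 3397 and 3774, fell between them. Itga6 gave 0.18 in that comparison (adjusted p = 0.668, edgeR), and 0.54 (adjusted p = 0.0412) without resting wannabe replicate 1.

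**Figure D2:**
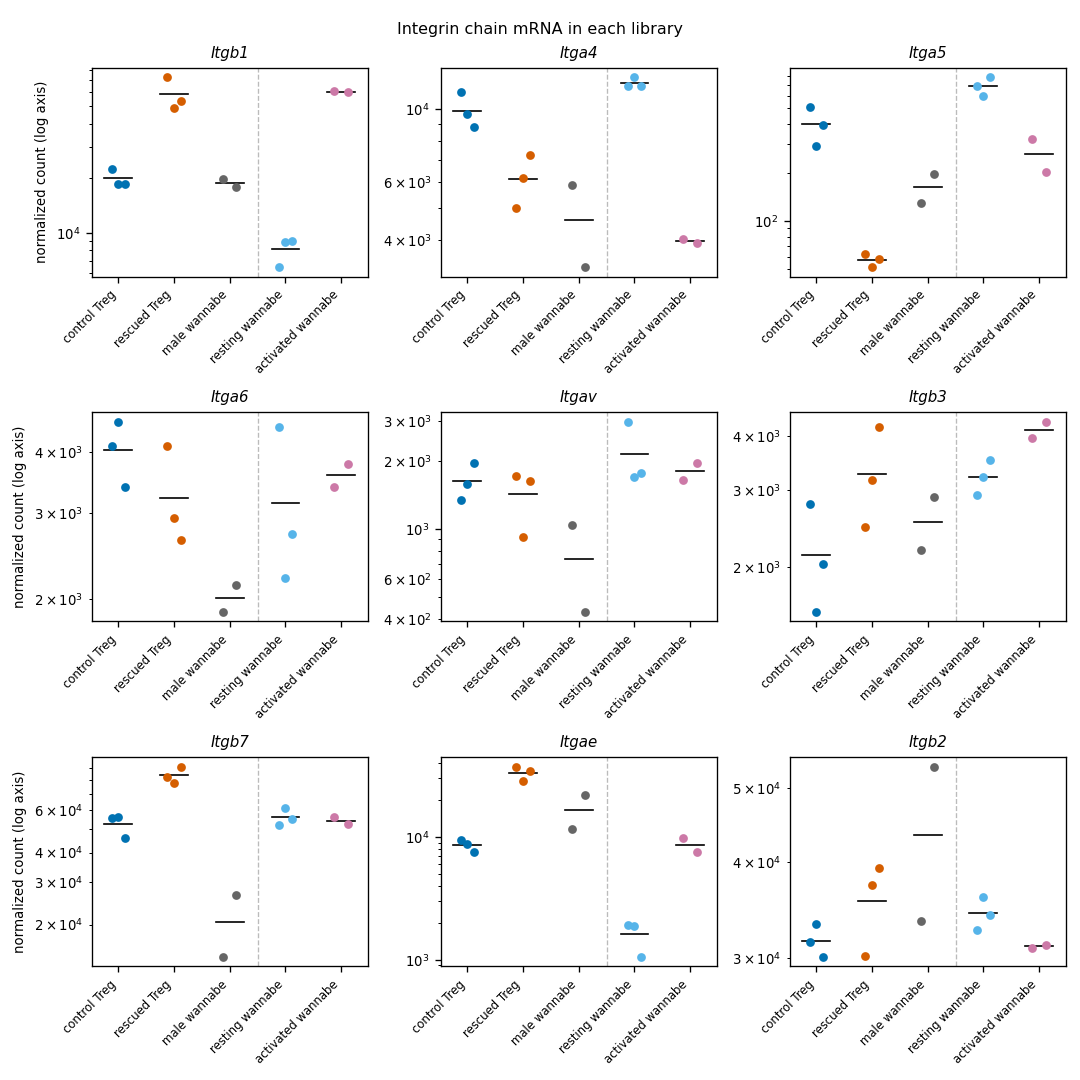
Normalized counts of 9 integrin chains in each library on log axes, 1 panel a chain, with a bar at the group mean. The dashed line separates the male experiment (left) from the female experiment (right), between which levels are not compared. Within each experiment Itgb1 and Itgae are highest in rescued Treg cells and in activated wannabes, and among the male groups Itga5 is lowest in rescued Treg cells.

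Itgav, the alphav chain, passed in none of the 4 comparisons with edgeR after the filter on low counts. Its normalized counts ran from 1350 to 1960 in control Treg cells, from 927 to 1710 in rescued Treg cells, from 1694 to 2966 in resting and from 1649 to 1954 in activated wannabes. The 2 male wannabe libraries held 1045 and 432, both below control Treg cells. The difference of control Treg cells from wannabes was 1.14 (interval 0.29 to 2.00, adjusted p = 0.0694 with edgeR, 0.0316 without the filter, 0.0222 with DESeq2), and 1.92 (adjusted p = 0.0126) without male wannabe replicate 1. Rescued Treg cells against wannabes gave 0.95 (adjusted p = 0.135, edgeR), and 1.72 (adjusted p = 0.0203) without that library. Rescued against control Treg cells gave -0.20 with an interval of -0.93 to 0.54, and activated against resting wannabes -0.25 with an interval of -0.86 to 0.36. Itgb3, the beta3 partner of alphav in the vitronectin receptor, also passed in none with that filter. It stood at 2793, 1574 and 2026 in control and at 2475, 3159 and 4189 in rescued Treg cells, which overlapped, with a log2 difference of 0.62 (adjusted p = 0.258, edgeR). Activated wannabes, at 3953 and 4309, lay above resting ones, at 2918 to 3528, by 0.35 (interval 0.11 to 0.60, adjusted p = 0.0514, edgeR). That difference passed with DESeq2 (adjusted p = 0.0222), among genes with a mean over 100 normalized counts (0.0396) and with edgeR when resting wannabe replicate 3 was left out (0.0373).

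Itgae, which encodes CD103, was high in rescued Treg cells and low in resting wannabes. The normalized counts were 9445, 8823 and 7576 in control Treg cells, 37383, 28527 and 34458 in rescued Treg cells and 11559 and 21863 in male wannabes. The 3 groups did not overlap, and the 2 wannabe libraries stood far apart. Itgae rose from 8615 ± 952 (SD, n = 3) in control to 33456 ± 4512 (SD, n = 3) in rescued Treg cells, a log2 fold change of 1.96 (standard error 0.22, interval 1.47 to 2.44, adjusted p = 0.00199, edgeR), or 3.88-fold, in every fit tried. It was higher in rescued Treg cells than in male wannabes by 1.00 (standard error 0.24, adjusted p = 0.0188, edgeR), which was 0.61 (adjusted p = 0.0653) without male wannabe replicate 1, 0.92 (0.056) without rescued Treg replicate 1 and 0.97 (0.0562) with only the groups compared. It was lower in control Treg cells than in male wannabes (log2 difference -0.95, standard error 0.23, adjusted p = 0.0187, edgeR), which was -0.47 (adjusted p = 0.133) without male wannabe replicate 2, -0.97 (0.052) without control Treg replicate 2 and -0.86 (0.0706) without control Treg replicate 3. In the female experiment the counts were 1918, 1876 and 1061 in resting and 9742 and 7571 in activated wannabes. Itgae rose there by 2.42 (standard error 0.26, interval 1.80 to 3.03, adjusted p = 0.00181, edgeR), or 5.33-fold, with any library left out. The gene inside Itgae, Haspin (Gsg2), rose in activated wannabes too, by 0.88 (adjusted p = 0.0253, edgeR), and was higher in rescued Treg cells than in male wannabes by 1.05 (0.0379). Rescued against control Treg cells gave 1.06 for it (adjusted p = 0.0645 with edgeR, 0.00343 with DESeq2), and control Treg cells against male wannabes -0.01 (0.993). Without activated wannabe replicate 1 or 2 the adjusted p of the first Gsg2 call was 0.165 or 0.107. The second was lost with no filter on low counts (0.0502), with only the groups compared (0.0672), and without control Treg replicate 3 or any 1 of the rescued and wannabe libraries (adjusted p 0.0535 to 0.173). That of rescued against control passed with only the groups compared (0.0411), among genes with a mean over 100 normalized counts (0.0424) and without male wannabe replicate 1 (0.046) or 2 (0.0458). Raw counts of Gsg2 were 1052 or fewer in every library except 1 rescued library with 1182.

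Itgb7, the beta7 chain with which both alphaE and alpha4 pair, set the male wannabes apart. Its normalized counts were 55876, 56278 and 45893 in control Treg cells, 82684, 77992 and 91241 in rescued Treg cells and only 14696 and 26467 in male wannabes, with no overlap between groups. It was higher than in wannabes by 2.03 in rescued Treg cells (standard error 0.23, adjusted p = 0.000372, edgeR) and by 1.36 in control Treg cells (standard error 0.22, adjusted p = 0.00274, edgeR), and both calls held with any library left out. Between rescued and control Treg cells the difference was 0.67 (interval 0.25 to 1.09, adjusted p = 0.104, edgeR), which did not pass. It passed with DESeq2 (adjusted p = 0.0187) and, in edgeR, with a fit of those 2 groups alone (0.0157) or without male wannabe replicate 1 (0.0101) or 2 (0.0109). In the female experiment Itgb7 was 52074 to 61125 in resting and 52440 and 56120 in activated wannabes, which overlapped. The difference was -0.05 with an interval from -0.26 to 0.16 (adjusted p = 0.706, edgeR).

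Itgb2, the beta2 chain of the leukocyte integrins, passed in none of the 4 comparisons with edgeR or DESeq2. It ran from 30135 to 33228 normalized counts in control Treg cells, from 30169 to 39303 in rescued Treg cells, from 32701 to 36087 in resting wannabes and stood at 30951 and 31232 in activated ones. The male wannabes were uneven again, at 33562 and 53328. Rescued against control Treg cells gave 0.17 (interval -0.21 to 0.55), and activated against resting wannabes -0.15 (interval -0.32 to 0.03). Control Treg cells against wannabes gave -0.46 (adjusted p = 0.13, edgeR) and rescued Treg cells -0.29 (adjusted p = 0.359). Both passed without male wannabe replicate 1, at -0.75 (adjusted p = 0.0127) and -0.58 (0.0398).

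Counted over the 9 chains tested, 3 passed between rescued and control Treg cells, Itgb1 and Itgae higher and Itga5 lower, where 2.30% of 14925 genes did. With DESeq2 Itgb7 and Itga4 passed there too, 5 of 9, against 7.82% of 14013 genes with an adjusted p. Between rescued Treg cells and male wannabes 4 passed (Itgb1, Itgb7 and Itgae higher, Itga5 lower) against 14.1% of genes. Between control Treg cells and male wannabes 4 passed (Itgb7, Itga4 and Itga6 higher, Itgae lower) against 16.2%. Between activated and resting wannabes 4 of 9 passed (Itgb1 and Itgae higher, Itga4 and Itga5 lower) against 22.5% of 13166 genes. The median log2 difference of the 9 chains was 0.17, 0.68, 1.01 and -0.05 in these 4 comparisons, beside -0.03, 0.00, 0.09 and -0.01 over all genes tested. Libraries did not overlap for 5, 5, 7 and 6 of the 9 chains, against 24.2%, 42.7%, 46.1% and 56.6% of all genes. The male comparisons share libraries and are not independent of each other.

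**Figure D3:**
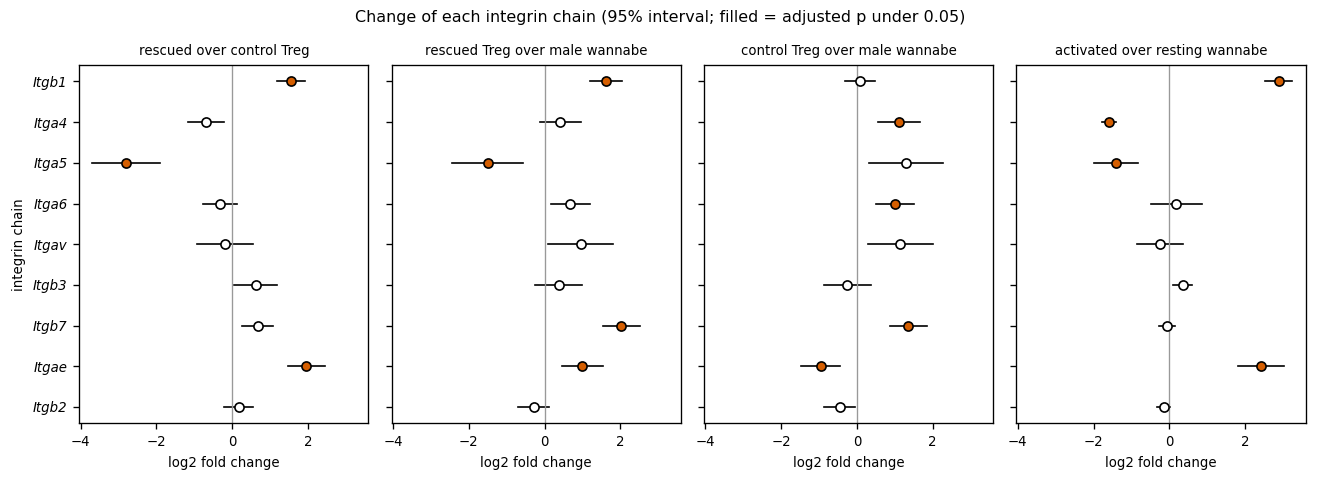
Log2 fold change (x axis) of each of 9 integrin chains in the 4 comparisons, with 95% intervals from edgeR's fit. Filled points have an adjusted p under 0.05. Itgb1 and Itgae are filled and to the right in rescued over control Treg cells and in activated over resting wannabes, where Itga5 is filled and to the left.

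The same chains can be set against their partners within a library, where library scaling drops out. Summed per kilobase, the 12 alpha chains that can pair with beta1 came to 2564 to 2910 in control Treg cells and 1988 to 2366 in rescued Treg cells. Itgb1 per kilobase was 2.04, 1.72 and 1.91 times that sum in control Treg cells, 8.05, 6.48 and 6.35 times in rescued Treg cells and 2.53 and 3.03 times in male wannabes. In the female experiment it was 0.546, 0.953 and 0.934 times the sum in resting and 8.48 and 7.95 times in activated wannabes. Rescued Treg cells and activated wannabes thus held far more beta1 mRNA per alpha chain mRNA than the groups beside them. Itga4 made up 38.9% to 52.5% of the alpha sum in resting and 22.0% and 20.5% in activated wannabes. In activated wannabes Itga6 was the larger share, at 41.3% and 43.9%. Of the 2 beta7 partners, Itgae held 68.1%, 69.9% and 68.6% of their sum per kilobase in control Treg cells and 95.0%, 92.1% and 92.3% in rescued Treg cells. It held 83.3% and 94.4% in male wannabes, 29.3%, 27.6% and 18.6% in resting and 86.0% and 83.0% in activated wannabes. Per kilobase, Itga4 was thus the main beta7 partner at the mRNA level in resting wannabes alone. On counts not divided by exon length, Itga4 also exceeded Itgae in control Treg cells (log2 ratio of Itgae over Itga4 -0.25 to -0.13). Itgb7 per kilobase was 5.77 to 6.39 times the sum of its 2 partners in control, 3.01 to 3.61 times in rescued Treg cells and 1.52 and 1.64 times in male wannabes.

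**Figure D4:**
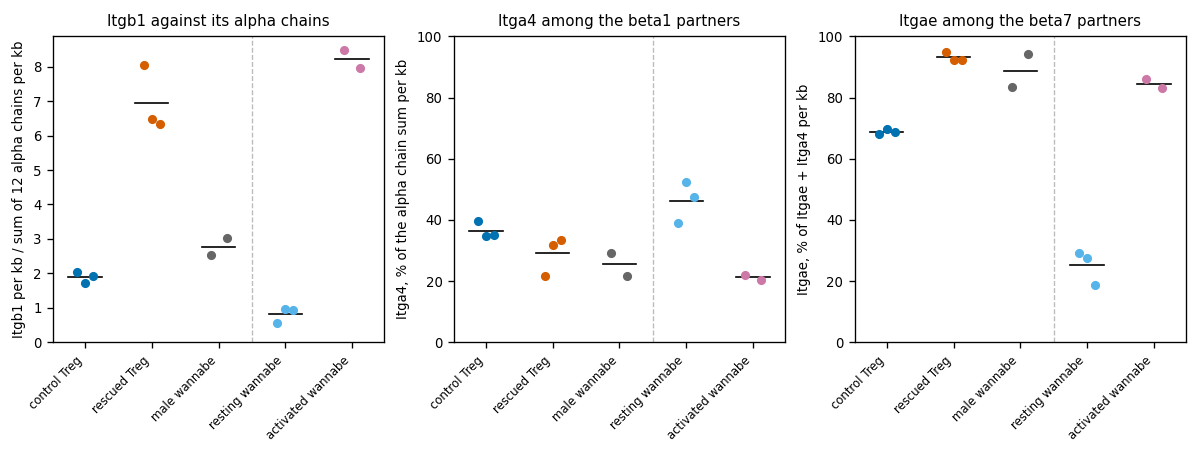
Per-library partner balance. Left, Itgb1 per kb divided by the sum of 12 alpha chains per kb. Middle, the percent of that sum held by Itga4. Right, the percent of the Itgae and Itga4 sum held by Itgae. Bars are group means, and the dashed line separates the experiments. Itgb1 exceeds the alpha sum at least 6.35 times in rescued Treg cells and 7.95 times in activated wannabes.

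The log2 ratios of partner counts were compared for 9 pairs in 4 comparisons with an exact two-sided permutation test, in which 0.1 is the smallest p that 3 against 3 or 3 against 2 libraries can give. Of the 36 tests 28 reached 0.1 (adjusted p = 0.129 over the 36), so none can pass 0.05 in this design. The Itgae over Itga4 ratio was higher by 2.65 in rescued than in control Treg cells and by 4.05 in activated than in resting wannabes. The Itgae over Itgb7 ratio was higher by 1.28 and by 2.50 in the same comparisons. It differed from the ratio in male wannabes by -1.02 in rescued and by -2.30 in control Treg cells. The 2 wannabe libraries, which differed in the level of either chain, had ratios of -0.35 and -0.28. Itga5 over Itgb1 differed by -4.29 between rescued and control Treg cells and by -4.34 between activated and resting wannabes. Itga4 over Itgb1 differed by -2.23 and -4.50. Among the 8 tests that did not reach 0.1 were Itgae over Itga4 between rescued Treg cells and male wannabes (0.60, exact permutation p = 0.5) and all 4 tests of Itgav over Itgb3. The first of these was -0.27 without male wannabe replicate 1, and Itgav over Itgb3 in the same comparison turned from 0.68 to -0.16 without replicate 2.

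Whether the change from control to rescued Treg cells and that from resting to activated wannabes differed was tested as the difference of the 2 changes over all 13 libraries. Of 9 chains 1 passed, Itgb1, against 1.53% of 15201 genes. The increase of Itgb1 was smaller in rescued Treg cells (difference of the log2 changes -1.33, standard error 0.24, interval -1.84 to -0.81, adjusted p = 0.0144, edgeR). It was -1.32 (adjusted p = 0.0842) without activated wannabe replicate 1 and -1.34 (0.0816) without replicate 2. Itgae rose in both, and the 2 increases differed by -0.45 with an interval of -1.24 to 0.35 (adjusted p = 0.692, edgeR). Itga5 fell in both, and its difference of -1.38 did not pass with edgeR (adjusted p = 0.144) and did with DESeq2 (0.045), which called 5.50% of genes. Itga4 gave 0.92 (adjusted p = 0.143, edgeR) and Itgb7 0.74 (adjusted p = 0.221). Both passed without the male wannabes (adjusted p = 0.0383 and 0.0283), and without male wannabe replicate 1 (0.034 and 0.0252) or 2 (0.0344 and 0.0259). Sex, age, agent and the kind of cell (Treg cells or wannabes) cannot be told apart from the change itself in this contrast.

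Beyond the 10 members, 16 other integrin chains were in the tables, most at low counts. Between rescued and control Treg cells 1 of 14 tested passed (2.30% of all genes did): Itga1, the alpha1 chain of a collagen receptor with beta1, at 37.5, 19.1 and 1.89 normalized counts in control and 189, 349 and 402 in rescued Treg cells. The log2 fold change was 4.00 (standard error 0.86, adjusted p = 0.0355, edgeR), and the adjusted p lay between 0.056 and 0.129 when any 1 of those 6 libraries was left out. The log2 fold change was 4.88 without control Treg replicate 1. Itga2, the alpha chain of another collagen receptor, was 94 to 127 in resting and 540 and 383 in activated wannabes. It rose by 2.10 (standard error 0.23, adjusted p = 0.00197, edgeR). Itga7, a laminin-binding chain, rose by 1.87 (standard error 0.13, adjusted p = 0.000555, edgeR) from 195 ± 6.07 (SD, n = 3) to 718 ± 37.7 (SD, n = 2), and Itga9 fell by 0.59 (adjusted p = 0.00794, edgeR). Without activated wannabe replicate 1 or 2 the adjusted p of Itga9 was 0.0797 or 0.0779. In that comparison 5 of 12 tested chains passed, 3 higher and 2 lower, where 22.5% of all genes did. Itga1, Itga2 and Itga7 together held 2.03% to 2.63% of the beta1 alpha sum in resting and 13.1% and 12.1% in activated wannabes, a sum chosen after their values were seen.

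Itgb8, whose product pairs with alphav to activate latent TGF-beta, was 970, 949 and 1650 in control Treg cells, 114, 623 and 584 in rescued Treg cells and 75.1 and 111 in male wannabes. It was higher in control Treg cells than in male wannabes by 3.68 (standard error 0.68, adjusted p = 0.00469, edgeR), in every fit tried. Rescued Treg cells against wannabes gave 2.24 (adjusted p = 0.0368, edgeR), but rescued replicate 1 lay close to the wannabes. The adjusted p of this result reached 0.144 without male wannabe replicate 1 and 0.0894 without replicate 2, 0.092 and 0.0938 without rescued Treg replicate 2 and 3, 0.0587 and 0.0506 without control Treg replicate 1 and 2, and 0.0871 with only the groups compared. Itgam, the alphaM chain of myeloid cells, was at 107 to 341 in control Treg cells and at 2.82 and 29.2 in male wannabes (log2 difference 4.03, adjusted p = 0.0256, edgeR). Itgam is also 1 of the 9 myeloid markers, whose sum ran from 150 to 360 in control Treg cells and from 48.6 to 94.8 in male wannabes, and the part of such cells in it was not tested. Its adjusted p was 0.0715 and 0.071 without control Treg replicate 1 and 3. The log2 difference was 3.15 (adjusted p = 0.0806) without male wannabe replicate 1 and 6.42 without replicate 2. Itga7 was lower in control Treg cells (-1.34, adjusted p = 0.0126, edgeR) and in rescued Treg cells (-1.02, adjusted p = 0.0443) than in male wannabes. Without male wannabe replicate 1, whose Itga7 was 2218 against 1423 in replicate 2, these were -0.99 (adjusted p = 0.0852) and -0.67 (0.259). The control call was also lost without control Treg replicate 1 (0.0516). The rescued call held in 2 of the 8 fits that left out 1 library. It was lost without control Treg replicate 1 (0.0607), 2 (0.0617) or 3 (0.0655), without rescued Treg replicate 2 (0.153) or 3 (0.0938), and with only the groups compared (0.0742). Counts for this list were 3 of 14 (2 higher) for control Treg cells and 4 of 14 (2 higher) for rescued Treg cells against wannabes, beside 16.2% and 14.1% of all genes. Of these, Itga2 was 1178 to 1318 in rescued Treg cells and 635 and 739 in male wannabes (0.86, adjusted p = 0.0408, edgeR). That call held in 0 of the 8 fits that left out 1 library (adjusted p 0.0527 to 0.146), and it was lost with no filter on low counts (0.0627) and with only the groups compared (0.0883).

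Genes set around the switching of integrins from inside the cell, through the GTPase Rap1, talin and kindlin, were measured as a list of 24. Between rescued and control Treg cells 0 of 22 tested passed in edgeR, beside 2.30% of all genes. An unadjusted p under 0.05 was found for 7 of the 22 and for 2403 of all 14925 genes. With DESeq2 5 of the 22 passed, beside 7.82% of all genes with an adjusted p. Between rescued Treg cells and male wannabes 5 of 22 passed, 3 higher and 2 lower, beside 14.1% of all genes. Rasgrp1, an exchange factor for Ras in T cells, was 11857 to 15414 in rescued and 5296 and 5020 in wannabe libraries (1.38, standard error 0.16, adjusted p = 0.000395, edgeR). Sipa1, which turns Rap1 off, was higher by 2.18 (adjusted p = 0.000818, edgeR) and Rap1b by 2.61 (adjusted p = 0.00357). Rap1b was 28773, 12445 and 8816 in the rescued libraries, and its difference was 1.96 without rescued Treg replicate 1. Flna, the actin crosslinker filamin A that competes with talin for beta tails, was lower (log2 difference -0.88, adjusted p = 0.00234, edgeR), as was the Rap1 effector Rassf5 (-0.64, adjusted p = 0.00731). Control Treg cells against wannabes gave 7 of 22, 3 higher and 4 lower, beside 16.2% of all genes, with Rasgrp1 at 1.37 (adjusted p = 0.000606, edgeR) and Flna at -1.40 (0.000382). Talin itself, Tln1, gave -0.79 there (adjusted p = 0.0137, edgeR), a call lost without control Treg replicate 1 (0.0503) or male wannabe replicate 2 (-0.57, adjusted p = 0.0649). Sipa1 was higher by 1.51 (adjusted p = 0.00609, edgeR) and Apbb1ip, the adaptor RIAM that links Rap1 to talin, by 0.86 (0.025), while Rap1gap2 gave -1.02 (0.0277). Apbb1ip was not called without control Treg replicate 1 (0.0561) or 3 (0.0867) or male wannabe replicate 2 (0.12). Rap1gap2 was not called without control Treg replicate 1 (0.0952) or 2 (0.0778) or male wannabe replicate 1 (0.0874). Activated against resting wannabes gave 5 of 21, 3 higher and 2 lower, beside 22.5% of all genes. Rap1gap2, which inactivates Rap1, rose by 1.45 (adjusted p = 0.00186, edgeR), Fermt3, the leukocyte kindlin, by 0.49 (adjusted p = 0.00501, but 0.0556 or 0.0595 without activated wannabe replicate 1 or 2), and Rasgrp1 fell by 0.35 (adjusted p = 0.0197). Rapgef1, an exchange factor for Rap1, rose by 0.65 (adjusted p = 0.0312, edgeR) and Apbb1ip fell by 0.43 (0.0199). Without activated wannabe replicate 1 or 2 the adjusted p was 0.21 or 0.124 for Rapgef1 and 0.161 or 0.088 for Apbb1ip, and without resting wannabe replicate 3 it was 0.069 for Rapgef1. The fall of Rasgrp1 was not called without activated wannabe replicate 1 (adjusted p = 0.153) or 2 (0.108). The median of the list was 0.04, -0.17, -0.10 and 0.03 in the 4 comparisons.

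Of 17 genes that act downstream at the adhesion site, 15 were tested. Zyx, the adhesion and stress-fibre protein zyxin, was 7775 to 8135 normalized counts in control and 12913 to 14037 in rescued Treg cells, against 3699 and 4515 in male wannabes. It rose by 0.77 (standard error 0.13, adjusted p = 0.0149, edgeR) from control to rescued Treg cells. Actn1, the actin crosslinker alpha-actinin 1, fell by 1.49 (standard error 0.25, adjusted p = 0.0116, edgeR), and these were the 2 of 15 that passed, beside 2.30% of all genes. Zyx was not called without any 1 of the control libraries or without rescued Treg replicate 1 (adjusted p 0.0622 to 0.0725). Actn1 was not called without control Treg replicate 1 or 3 or rescued Treg replicate 1 or 2 (adjusted p 0.0524 to 0.0614). In control Treg cells against wannabes 5 of 15 passed (16.2% of all genes did), 3 of them higher, among them Ptk2, the focal adhesion kinase, at 1.95 (adjusted p = 0.00689, edgeR), Actn1 at 1.06 (0.0251) and Zyx at 0.96 (0.00231). The 2 lower ones were Lpxn, the paxillin relative leupaxin, at -0.65 (adjusted p = 0.0109) and Ilk, integrin-linked kinase, at -0.56 (0.0381). Actn1 was not called without control Treg replicate 1 (0.0798) or 3 (0.071) or male wannabe replicate 1 (0.128). Ilk was not called without any 1 of the control and wannabe libraries or without rescued Treg replicate 2 (adjusted p 0.0555 to 0.127). Rescued Treg cells against wannabes gave 1 of 15 (14.1% of all genes), Zyx at 1.73 (adjusted p = 0.000233, edgeR). Activated against resting wannabes gave 4 of 15, 2 higher and 2 lower, beside 22.5% of all genes. Zyx rose there by 0.44 (adjusted p = 0.00965, edgeR), not called without activated wannabe replicate 1 (0.0591) or 2 (0.105), and Vcl, vinculin, fell by 1.13 (adjusted p = 0.0238). Without the same libraries the adjusted p of Vcl was 0.143 or 0.134. Lims1, the adhesion adaptor PINCH1, fell by 0.37 (adjusted p = 0.0206), with 0.142 or 0.128 without those libraries.

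Of 17 integrin ligands, which other cells also supply, 15 were tested in the male experiment. Fn1, fibronectin, was at 10.4 normalized counts or fewer in control Treg cells, at 101 to 258 in rescued Treg cells and at 601 and 251 in male wannabes. It was the 1 of 15 that passed between control and rescued Treg cells, beside 2.30% of all genes (rescued higher by 5.26, standard error 0.87, adjusted p = 0.0116, edgeR), with 4.84 and an adjusted p of 0.0573 without control Treg replicate 1. The value was 7.21 without control Treg replicate 3, so the size of this difference from a group near 0 depends on single libraries. Rescued Treg cells against wannabes gave 1 of 15 beside 14.1% of all genes, Lamc1 (a laminin chain, 1.60, adjusted p = 0.00787, edgeR). Control Treg cells against wannabes gave 5 of 15, 1 higher and 4 lower, beside 16.2% of all genes. Lamc1 was higher (1.56, adjusted p = 0.00923, edgeR), with an adjusted p of 0.05 and no call without male wannabe replicate 1. Fn1 was lower (-6.63, adjusted p = 0.00136), at -8.58 without control Treg replicate 3 and -5.88 without male wannabe replicate 1. Tgfb3, a TGF-beta whose latent form alphav integrins bind, gave -2.22 (adjusted p = 0.0217) and Mfge8 -1.10 (0.0102). Tgfb3 was not called without control Treg replicate 1 (0.0651) or 3 (0.0708) or male wannabe replicate 1 (0.0781), and Mfge8 not without male wannabe replicate 2 (0.0531). Activated against resting wannabes gave 3 of 14, 2 higher and 1 lower, beside 22.5% of all genes, with Mfge8, a bridge to phosphatidylserine that alphav integrins bind, at 0.59 (adjusted p = 0.0208, edgeR) and Lamc1 at -1.42 (0.0457). Mfge8 was not called without activated wannabe replicate 1 (0.173) or 2 (0.0942) or resting wannabe replicate 3 (0.0503). Lamc1 was called in 1 of the 5 fits that left out 1 library. It was not called without activated wannabe replicate 1 (0.232) or 2 (0.185), without resting wannabe replicate 1 (0.0888) or 2 (0.09), or without a filter on low counts (0.0598). Fn1 was at 1.04 normalized counts or fewer in resting and at 200 and 117 in activated wannabes, a gene named there after its values were seen.

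**Figure D5:**
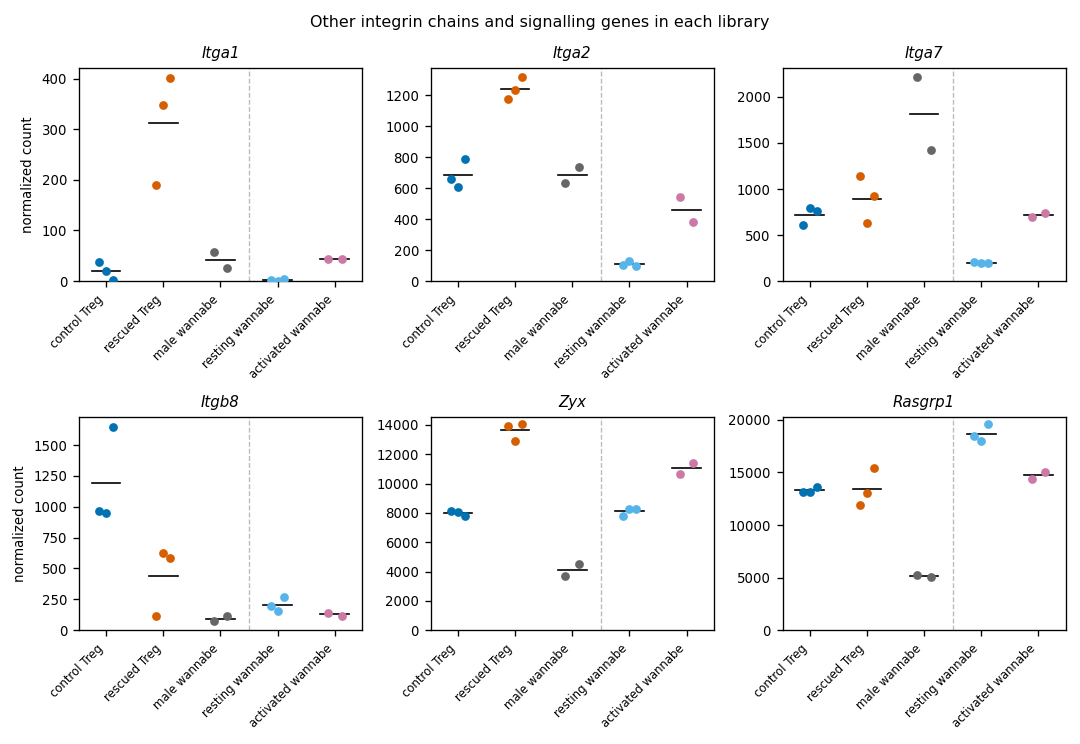
Normalized counts in each library of 4 further integrin chains and of Zyx and Rasgrp1, on linear axes from 0, with a bar at the group mean. Itga1 and Itga2 are highest in rescued Treg cells within the male experiment, Itgb8 in control Treg cells, and Rasgrp1 is at 5296 and 5020 in male wannabes.

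Genes with the profile most like that of Itgae, Itgb1 and Itgb7 were ranked by the root mean square difference of log2 CPM, centred within each experiment, over 13 libraries. The ranking covered 10239 other genes whose mean exceeded 100 normalized counts within each of the 2 experiments. For Itgae these were Runx2 (0.38), Kremen2 (0.42) and Ly6a (0.44), against a median of 1.09 over all genes. Runx2, a transcription factor of the RUNX family, was 660 to 1067 normalized counts in control and 1709 to 3335 in rescued Treg cells, and 407 to 860 in resting and 2169 to 2371 in activated wannabes. For Itgb1 the nearest were the histone genes Hist1h2ap (0.38), Hist1h2an (0.43) and Hist1h2ad (0.43), against a median of 1.12. These are near-identical copies of 1 multigene family among which reads can be split, so their single values are uncertain, as may be those of Ly6a. For Itgb7 they were Cactin (0.09), Fam53a (0.10) and Pdcd6ip (0.13), against a median of 0.74. Pdcd6ip, the membrane-sorting protein ALIX, was 7113 to 7798 in control, 11808 to 12948 in rescued and 2732 and 3611 in male wannabe libraries, and it shared with Itgb7 the closeness of resting (11264 to 11823) and activated (11183 and 11446) wannabes.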

How the data were processed

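The authors sorted cells in 2 rounds, amplified RNA with the SMART-Seq v4 kit, aligned paired reads with STAR 2.7.3a to GRCm38, realigned them locally and counted reads per gene in R. The deposited values are these raw counts, 1 table an experiment, and the annotation and strand setting are not given in the sources used here. Columns were tied to samples by genotype or sort marker. Those named GFP were taken as rescued Treg cells from the sort gates of the methods, since the labels of these samples lack that word. The design text of the series gives the resting and activated wannabes the reverse numbers of replicates, and the sample titles (3 resting, 2 activated) were followed. Rows without a gene name, 4 per experiment and 0.00353% to 0.00841% of counts, were left out. Counts were normalized by TMM and tested with edgeR 4.0.16 in R 4.3.3 (quasi-likelihood test, filterByExpr, Benjamini-Hochberg adjustment over all genes tested, adjusted p under 0.05). One fit held the 8 male libraries, a separate one the 5 female libraries, and the difference of changes used all 13. Coordinates and exon lengths come from GENCODE M21, to which 96.9% of genes matched by symbol. Partner ratios used counts plus 0.5, without Itgal and Itgb2. For log2 CPM the prior count was 2. Across male libraries edgeR's common biological coefficient of variation came to 0.510, and across female ones to 0.171. The floor of 3 counts covers counting error only, since the reads carry no molecular identifiers.

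The text names all 10 chains and, from lists of other chains, activators, adhesion-site proteins and ligands, up to 3 genes a direction and comparison with the largest change among those called with a mean normalized count over 100. It names 3 genes of most alike profile for each of 3 chains. Members and lists were chosen with earlier results of these data known. All replicate pairs compared differed by more than sampling noise. The scripts were tested on simulated data. For log2 changes of 1 between rescued and control Treg cells, edgeR recovered 37 of 100 and DESeq2 52. Genes called though unchanged numbered 5 with edgeR and 51 with DESeq2. In the difference of changes edgeR recovered 17 of 100 and DESeq2 43, with 5 and 41 false calls. Between activated and resting wannabes they recovered 79 and 89, with 15 and 46 false calls. The alternatives were DESeq2 1.42.0, edgeR with its size factors, testing without a filter or above a mean of 100 normalized counts, the replicate block, a fit of only the groups compared, counts plus 1 for ratios, and each library left out.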

Additional observations from a re-analysis of the deposited data

Results flagged for a closer look

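Of 36 chains and named genes tested for a difference between the 2 experiments' changes, 2 passed, beside 1.53% of 15201 genes. Genes other than the 10 chains had been chosen because they were called in 1 or more of the comparisons. Itgb1 was higher by 1.55 (log2) in rescued than in control Treg cells, and its increase from resting to activated wannabes was 2.89, a difference of -1.33 (standard error 0.24, adjusted p = 0.0144, edgeR). It was not called without activated wannabe replicate 1 (adjusted p = 0.0842) or 2 (0.0816). Itga7 gave 0.31 in the first and 1.87 in the second, a difference of -1.55 (standard error 0.35, adjusted p = 0.0471, edgeR). That call was lost in 9 of the 13 fits that left out 1 library (adjusted p up to 0.244) and under the replicate block (0.117), and the libraries concerned were control Treg replicates 2 and 3, rescued Treg replicates 2 and 3 and each female library. Sex, age, agent and the kind of cell (Treg cells or wannabes) differ between the 2 changes and cannot be told apart from these differences. No group held enough libraries to be examined for a single outlying one.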

How the results depend on the processing

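The number of genes called between rescued and control Treg cells was 343 with edgeR, 1096 with DESeq2, 612 without a filter on low counts, 580 with only the groups compared and 114 to 598 with 1 library left out. Integrin chains called there numbered 3, 5 with DESeq2 and 3 to 5 with 1 library left out. Between rescued Treg cells and male wannabes 2105 genes were called, more than the 1570 to 1959 with 1 library left out or the 1421 with only the groups compared. The chains called there numbered 4, 2 with only the groups compared (Itga5 and Itgae were lost) and 2 to 6 with 1 library left out. Control Treg cells against male wannabes gave 2416 genes (1549 to 2423 with 1 library left out) and 4 chains (2 to 5). Activated against resting wannabes gave 2958 genes (751 to 3215 with 1 library left out) and 4 chains (3 to 5). The difference of changes gave 233 genes (DESeq2 770, only the groups compared 437, 1 library left out 44 to 430) and 1 chain (DESeq2 2, only the groups compared 3, 1 library left out 0 to 3). Partner ratios against male wannabes moved with the wannabe library left out. For rescued Treg cells the ranges were -2.46 to -0.79 for Itga4 over Itgb7, -0.27 to 1.47 for Itgae over Itga4, -1.48 to -0.81 for Itga4 over Itgb1, -3.44 to -2.69 for Itga5 over Itgb1, -1.14 to -0.01 for Itgav over Itgb1 -0.98 to 0.02 for Itgb1 over Itgb7 and -0.16 to 1.52 for Itgav over Itgb3. For control Treg cells they were -1.09 to 0.58 for Itga4 over Itgb7, -2.92 to -1.18 for Itgae over Itga4, 0.75 to 1.42 for Itga4 over Itgb1, 0.85 to 1.59 for Itga5 over Itgb1, 0.62 to 1.75 for Itgav over Itgb1, 0.70 to 2.38 for Itgav over Itgb3 and -1.84 to -0.84 for Itgb1 over Itgb7. The sign turned without male wannabe replicate 1 at 0.58, -0.27 and 0.02, and without replicate 2 at -0.16. The cause of these shifts was not tested.

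Same-numbered libraries did not deviate together (correlations -0.0292 to 0.0845), so the replicate numbers are only names. With a replicate block 426, 1968, 2304, 2045 and 238 genes were called in the 5 comparisons, in the order above. Among the chains, Itga5 between rescued Treg cells and male wannabes had an adjusted p of 0.085 under the block, while Itga6 in the same comparison (0.0341), Itgav between control Treg cells and male wannabes (0.0454) and Itgb3 between activated and resting wannabes (0.0385) passed. Of the other genes the text names, Itga2 (0.0859) and Itga7 (0.05) between rescued Treg cells and male wannabes, Itgam (0.0698), Ilk (0.0749) and Tgfb3 (0.0521) between control Treg cells and male wannabes, and Apbb1ip (0.0677), Rasgrp1 (0.0565) and Mfge8 (0.0539) between activated and resting wannabes were not called under it. Each library held 25556783 or more counts. For chains as high as Itgb1 the spread between libraries, rather than counting error, therefore sets the intervals. That spread is estimated for each gene over all groups of a fit, with 2 or 3 libraries in each.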
